A study of Mus musculus with 8 samples.

Results

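The cytosolic ribosomal protein genes encode the protein part of the ribosome, and they were taken here from the rows of the deposited expression table by gene name. A row was a member when its name was *Rpl* or *Rps* followed by a number and an optional letter or copy number, or was *Rplp0*, *Rplp1*, *Rplp2* or *Rpsa*, and its level was not used for the choice. This gave 84 members of 23427 rows, 33 named for the small subunit (*Rps* and *Rpsa*) and 51 named for the large subunit (*Rpl* and *Rplp*), on 19 chromosomes. Names of pseudogenes (with "-ps") and of ribosomal protein kinases did not match. Genes of the ribosome with other names, among them the gene of Rack1, are described as a list of their own.

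The study followed mouse primary oligodendrocyte precursor cells (OPCs) as they differentiated into oligodendrocytes (OLs) in culture. All 8 libraries were of WT genotype and C57BL/6J strain, 2 replicates, called independent by the paper, on each of Day 0, Day 1, Day 2 and Day 3, with days counted from the switch of the medium, which took away the growth factors and added thyroid hormone (T3). Per the methods, each culture started from cortical cells of 3 pooled pups of postnatal day 7, which were bound to an antibody against PDGFRα after plates coated with the lectin BSL I had removed microglia and endothelial cells. Stranded mRNA libraries were read as 75-nt pairs, and the sample labels name another culture medium and RNA kit than the methods do.

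A ribosome has a small subunit, which decodes the mRNA, and a large subunit, which joins the amino acids, and nearly every ribosomal protein is present once in each ribosome. The genes of these proteins are among the most abundantly transcribed of a growing cell, and their mRNAs begin with a run of pyrimidines, the 5′ terminal oligopyrimidine (TOP) motif, through which the kinase mTOR and the protein Larp1 set how much they are translated. OPCs divide in growth medium, and they stop dividing, extend membrane sheets and make myelin proteins when they differentiate.

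The values are FPKM, the number of sequenced fragments per kilobase of transcript and per 1e6 mapped fragments, as the authors deposited them. Read counts were not analysed here, so the depth was worked out from the spacing of the lowest FPKM values, and it lay between 948000 and 1528000 fragments per library. At that depth the middle member rested on about 767 fragments in the deepest library on Day 0 and 164 in the shallowest on Day 3. Of the 84 members, 72 had a mean above 100 FPKM over the 8 libraries. The median over the members that could be tested was 631 and 693 (Day 0), 506 and 445 (Day 1), 319 and 337 (Day 2) and 247 and 216 (Day 3), so each later day lay below the day before it in both libraries.

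A gene was tested when its FPKM was at least 1 in at least 2 libraries, and 80 of the 84 members passed this filter. *Rpl3l*, the form of *Rpl3* used in striated muscle, *Rpl10l*, the testis copy of *Rpl10*, and *Rpl39l*, the testis copy of *Rpl39*, were listed at 0 in every library. *Rpl26* was listed at 34.0 in Day 1 replicate 2 and at values that round to 0 in the other libraries. On the table's row beside *Rpl26*, named *Gm15772* and placed on the same chromosome 11, the FPKM was 913 and 1001 (Day 0), 768 and 632 (Day 1), 422 and 517 (Day 2) and 367 and 287 (Day 3). RefSeq places *Gm15772* on chromosome 5, and it shares stretches of 75 bases with the *Rpl26* transcripts, so this row can hold reads of either gene. *Gm12191* beside *Rpl30* and *Rpl34-ps1* beside *Rpl34* share such stretches too. *Gm9846* beside *Rps27* is a synonym of *Rps27rt* in RefSeq, and *Rps27rt* shares them with *Rps27*. The place of each of these rows in the table also differs from that in RefSeq, and how the authors' software divided the reads between the members of each pair was not tested.

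**Figure D1:**
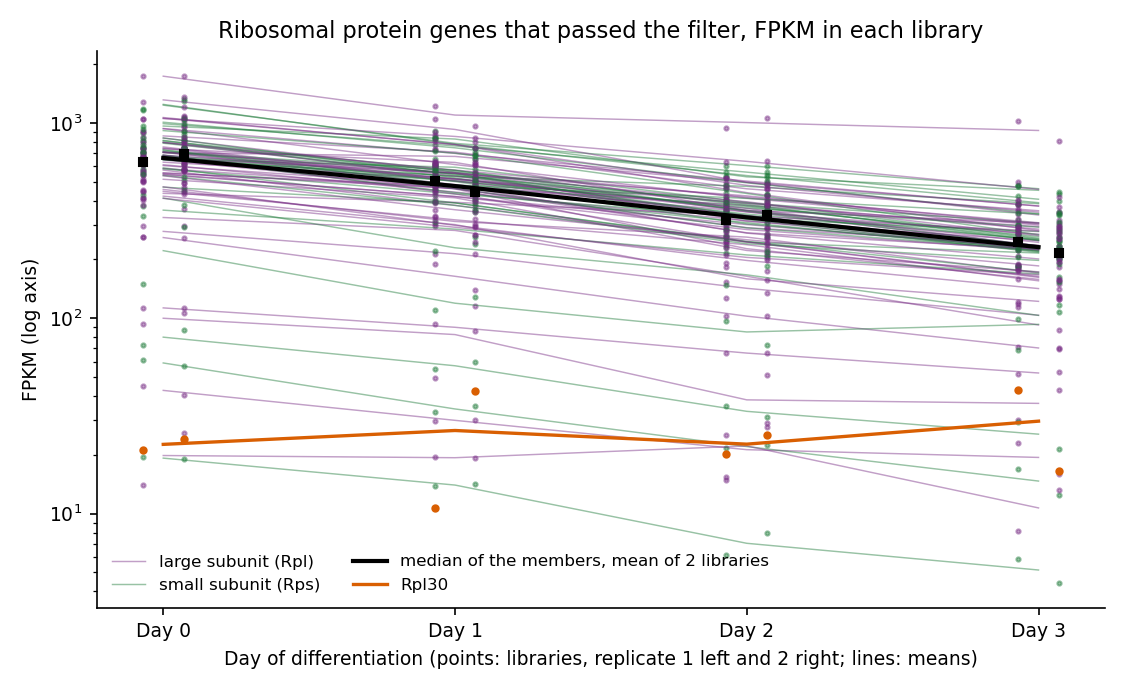
FPKM (log axis) of the 80 members that passed the filter, by day of differentiation, with a point for each library and a line through the mean of each day's 2 libraries. The median over the members, in black, went from 631 and 693 FPKM on Day 0 to 247 and 216 on Day 3, and *Rpl30* is drawn in orange.

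The first question was how much of the measured mRNA the members held. Their summed FPKM was 48439 and 53756 (Day 0), 40084 and 34934 (Day 1), 25351 and 25531 (Day 2) and 20026 and 17669.7 (Day 3). As a share of the sum over all rows, the members held 12.04% and 13.2% (Day 0), 10.5% and 9.22% (Day 1), 6.93% and 6.84% (Day 2) and 5.46% and 4.91% (Day 3). The libraries of the days did not overlap, and each day lay below the one before it. The mean share was 12.6% ± 0.840 (SD, n = 2) on Day 0 and 5.19% ± 0.387 on Day 3, which is 41.1% of the Day 0 share. The members make up 0.359% of the rows. FPKM is per length of transcript, so short transcripts weigh more in this share than in the fragments. Of the fragments, at the estimated depth, the members held 4.38% and 4.91% on Day 0 and 1.77% and 1.58% on Day 3. No test was run on the share, because a score over members chosen with results known gets none. FPKM gives a level relative to the other RNA of the library, and in these bulk samples fewer cells with a high level and less RNA per cell cannot be told apart.

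The sum over the other rows differed less between days than the members' sum. All other rows together summed to 353390.0 FPKM on Day 0 and 344270.0 on Day 3, a ratio of 1.03, against a ratio of 2.71 for the members. Among those other rows, the 12 OL markers on the list of cell type markers held 0.385% of all FPKM on Day 0 and 7.28% on Day 3, and with their FPKM taken out of the sum the members' mean share was 12.7% on Day 0 and 5.59% on Day 3. Of the 100 rows with the highest FPKM in a library, members made up 57 and 58 (Day 0), 48 and 46 (Day 1), 27 and 23 (Day 2) and 16 and 13 (Day 3).

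**Figure D2:**
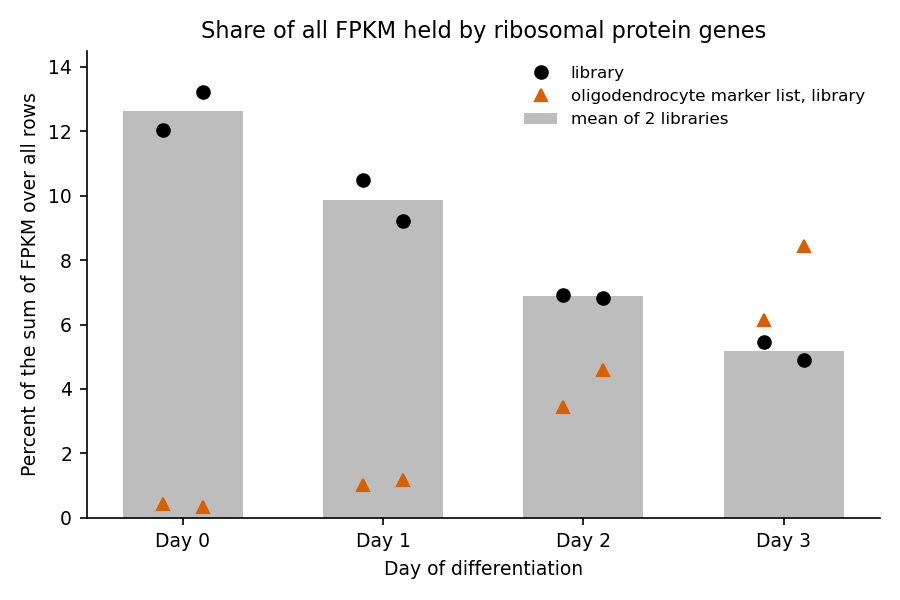
Share of the sum of FPKM over all rows held by the 84 ribosomal protein genes (circles, with bars for the mean of 2 libraries) and by the 12 OL markers (triangles), in percent, by day. The members' mean went from 12.6% on Day 0 to 5.19% on Day 3.

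Day 3 was compared with Day 0 to ask which ribosomal protein genes differed between OPCs and the cells that had differentiated for the longest time. Of the 80 members tested, 78 fell at an adjusted p under 0.05 (limma over 12208 genes), where 26.3% of all genes tested were called lower. By limma 0 members were called higher, and 0 had an unadjusted p under 0.05 in that direction, where 11.96% of all genes tested were called higher and 14.7% had such an unadjusted p. The median log2 fold change was -1.44 over the members, with quartiles of -1.67 and -1.28, and -0.31 over all genes tested, with quartiles of -0.85 and 0.24. Both Day 3 libraries lay below both Day 0 libraries in 79 of the 80 members, where 48.6% of all genes tested did so. A fall by more than 1 on the log2 scale was seen in 74 members and in 20.2% of all genes tested. Among the 587 other genes with a mean above 100 FPKM, 192 were called lower and 184 higher, with a median of -0.04. Over all genes 4667 were called, and 2777 without Day 0 replicate 1 and 2769 without Day 0 replicate 2. The p-values measure only the spread between these 8 libraries.

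The median of all genes depends on how the libraries are scaled. Scaling to a sum or by the median ratio multiplies each library by 1 factor, so apart from the pseudocount it cannot move the distance between the members' median and that of all genes, and only quantile normalization could. Relative to all genes, the members' median was -1.13 in the FPKM as deposited, -1.11 with each library at the same sum, -1.09 with median ratio scaling, -1.03 with quantile normalization and -1.09 with the same sum over rows outside the OL markers. The scalings moved the median of all genes from -0.31 to -0.18, -0.04, -0.03 and -0.09, in that order. Over all genes, 3207 were called lower and 1460 higher in the FPKM as deposited, against 2047 and 2134 with median ratio scaling, 2194 and 2071 with quantile normalization, and 2187 and 1968 without the OL markers in the sum. The members called lower were then 74, 72 and 76 of 80, and 79 had a negative log2 fold change under each of these scalings.

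**Figure D3:**
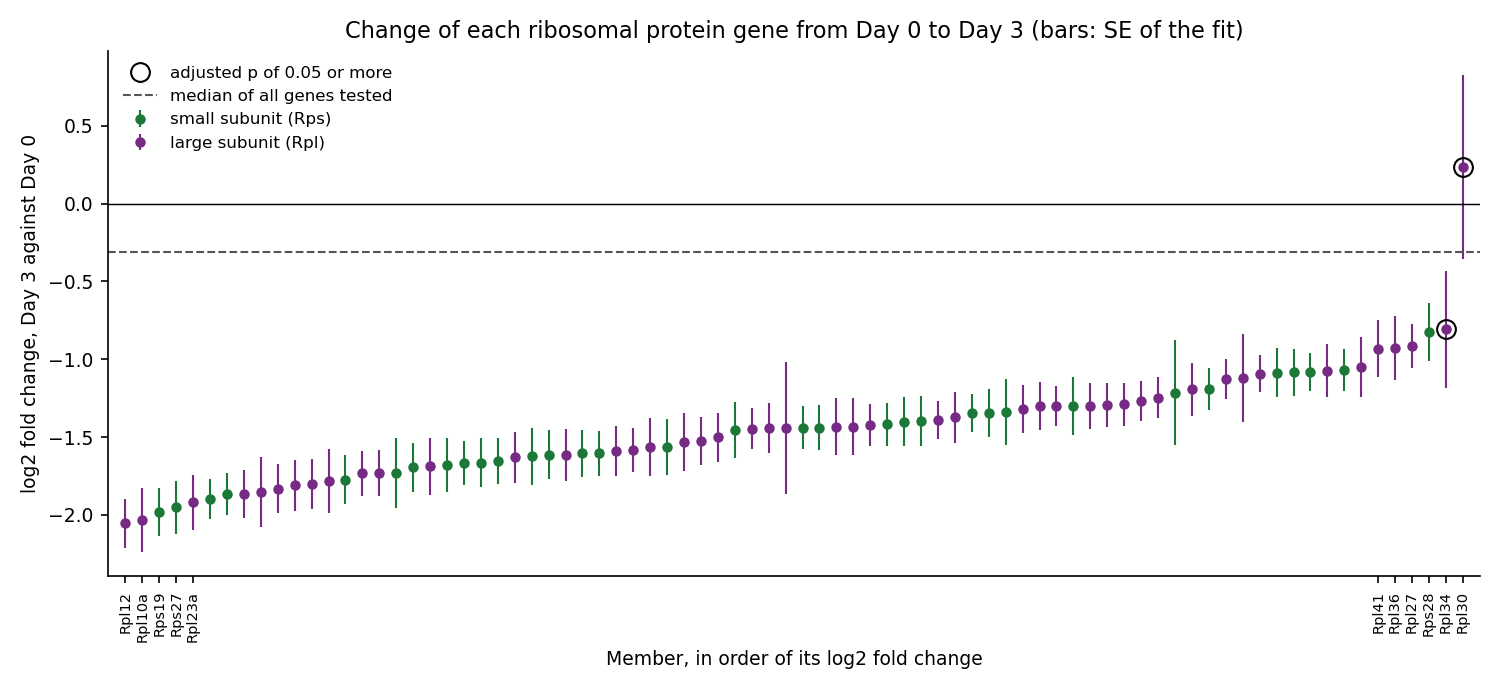
Log2 fold change from Day 0 to Day 3 of the 80 members tested, in order, with bars for the SE of the fit over 8 libraries. Values run from -2.05 in *Rpl12* to 0.23 in *Rpl30*, and the dashed line is the median of all genes tested, -0.31.

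The 5 largest falls were in *Rpl12*, *Rpl10a*, *Rps19*, *Rps27* and *Rpl23a*. *Rpl12* encodes a protein at the base of the stalk of the large subunit, and its FPKM was 611 and 756 (Day 0), 455 and 411 (Day 1), 249.6 and 242 (Day 2) and 178 and 149 (Day 3). The libraries of the days did not overlap, and *Rpl12* fell in the test with a log2 fold change of -2.05 (SE 0.15, adjusted p = 8.47e-05), which is -1.74 once the all-gene median is taken off. *Rpl10a*, whose protein forms the mobile L1 stalk beside the exit site of the tRNA, was measured at 552 and 741 (Day 0), 473 and 445 (Day 1), 242 and 212 (Day 2) and 187 and 129.5 (Day 3). Its Day 0 libraries differed more from each other than those of *Rpl12*, and both lay above every later library. The log2 fold change of *Rpl10a* was -2.03 (SE 0.21, adjusted p = 2.46e-04). *Rps19*, in the head of the small subunit and known as a gene mutated in Diamond-Blackfan anaemia, had FPKM values of 375 and 449 (Day 0), 220.3 and 239 (Day 1), 149 and 185 (Day 2) and 99.0 and 108 (Day 3). Here the step from Day 0 to Day 1 was the largest of the 3 steps, and *Rps19* fell over the whole course with a log2 fold change of -1.98 (SE 0.15, adjusted p = 9.83e-05).

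*Rps27* encodes a zinc-finger protein of the small subunit and lay at low values for a ribosomal protein gene, 60.8 and 57.2 (Day 0), 33.0 and 35.6 (Day 1), 21.6 and 22.5 (Day 2) and 16.9 and 12.5 (Day 3). The libraries of the days did not overlap, and the log2 fold change of *Rps27* was -1.95 (SE 0.17, adjusted p = 1.50e-04). Its neighbouring row *Gm9846*, placed by the table on chromosome 3 and by RefSeq on chromosome 9, was at 766 and 833 (Day 0), 595 and 620.3 (Day 1), 453 and 453 (Day 2) and 360.4 and 264 (Day 3). With that row added to *Rps27*, an alternative chosen after seeing the data, the log2 fold change was -1.41, so the place of *Rps27* among the 5 largest falls rests on the row by itself. *Rpl23a*, whose protein sits at the exit of the peptide tunnel where the signal recognition particle docks, was at 1045 and 1086 (Day 0), 894 and 653 (Day 1), 480.3 and 399 (Day 2) and 282 and 280.1 (Day 3). Every Day 3 library of *Rpl23a* was below every library of the earlier days, and its log2 fold change came to -1.92 (SE 0.18, adjusted p = 1.64e-04). *Rps4x*, of the small subunit, was close to these at -1.87.

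Since the members fell together, the letters around their starts of transcription are shown for those with the largest and smallest changes and the highest levels. RefSeq (GRCm38.p6) had promoter windows for 63 of the 84 members and for 26962 other genes, each from 250 bases before to 50 after the start. A run of at least 6 C or T letters that begins with C, on the sense strand within 15 bases on either side of the start, was present in 36 of 63 members (57.1%) and in 25.4% of the other genes. The same run on the antisense strand was present in 6 members (9.52%) and in 28.7% of the other genes. Within 25 bases on either side, the run was on the sense strand of 66.7% of members and 38.5% of other genes, and on the antisense strand of 23.8% and 42.2%. Such a run on the sense strand has the letters of a TOP motif, and whether transcripts of these cells began at it was not measured. CTTTCC, a run of 6 such letters, was found within 15 bases on the sense strand in 10 members (15.9%) and 1.64% of other genes, and on the antisense strand in 0 members and 1.49% of other genes. Within 25 bases CTTTCC was on the sense strand of 11 members (17.5%) and 2.88% of other genes, and on the antisense strand of 2 members (3.17%) and 2.59%.

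Of the 19 members with the largest or smallest changes or the highest levels, 12 are printed, those with exactly 1 RefSeq window that could be shown, and 8 of these held such a run. Their 30 bases around the start are given 5′ to 3′ on the gene's strand, with the run in capitals, chr2:32961697-32961726 on the plus strand for *Rpl12*, chr3:90213634-90213663 on the minus strand for *Rps27*, chr2:26910792-26910821 on the plus strand for *Rpl7a*, chr10:128626492-128626521 on the minus strand for *Rps26*, chr7:3704026-3704055 on the plus strand for *Rps9*, chr10:23787195-23787224 on the minus strand for *Rps12*, chr17:24720048-24720077 on the plus strand for *Rps2* and chr13:90923107-90923136 on the plus strand for *Rps23*.
Rpl12: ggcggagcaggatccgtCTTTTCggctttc
Rps27: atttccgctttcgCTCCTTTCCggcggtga
Rpl7a: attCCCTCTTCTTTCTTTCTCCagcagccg
Rps26: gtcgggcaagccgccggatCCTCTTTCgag
Rps9: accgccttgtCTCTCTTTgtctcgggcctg
Rps12: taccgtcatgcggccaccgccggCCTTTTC
Rps2: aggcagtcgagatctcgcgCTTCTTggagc
Rps23: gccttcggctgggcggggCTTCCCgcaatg

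The runs differ in length, with the shortest, of 6 letters, in *Rpl12*, *Rps2* and *Rps23* and the longest in *Rpl7a*. *Rplp0*, *Rpl41*, *Rps28* and *Rpl27* held no run of that length in these 30 bases, at chr5:115559452-115559481 on the plus strand for *Rplp0*, chr10:128549154-128549183 on the minus strand for *Rpl41*, chr17:33824548-33824577 on the minus strand for *Rps28* and chr11:101442230-101442259 on the plus strand for *Rpl27*, and their letters are printed without capitals for that reason.
Rplp0: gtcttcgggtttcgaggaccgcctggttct
Rpl41: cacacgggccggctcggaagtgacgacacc
Rps28: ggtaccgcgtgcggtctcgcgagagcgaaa
Rpl27: acgctctgttcctgtctgctgctcgtgctg

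The letters CCGGAAG, the core that ETS and GABP factors bind, were found on either strand of the whole window in 26 of 63 members (41.3%) and in 9.85% of the other genes. Among the 12 members printed, 3 held them, in capitals in the stretches of 30 bases that follow, in the reverse complement CTTCCGG for *Rps2*. They began 56 bases before the start in *Rpl41* (chr10:128549206-128549235 on the minus strand), 127 before it in *Rps2* (chr17:24719925-24719954 on the plus strand) and 214 before it in *Rps26* (chr10:128626702-128626731 on the minus strand).
Rpl41: tagtaaggcagCCGGAAGtcgctgtctcga
Rps2: atttatacgtcCTTCCGGctggtgtagggc
Rps26: ttaatcttccgCCGGAAGgttaaatagttc

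The other motifs searched on both strands of the whole window gave smaller counts. AAGATGGC, the core of the YY1 motif, was in 6 members (9.52%) and 3.17% of other genes, TATAAA in 7 members (11.1%) and 15.7%, and CACGTG, the E-box of Myc and Max, in 6 members (9.52%) and 8.09%. These matches describe letters and no binding was measured. The other genes are all those with a RefSeq window, whether or not they were expressed in these cells. The members were not compared with genes of a like level, so these shares do not show a trait particular to the members.

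The highest mean over the 8 libraries, 1187 FPKM, was that of *Rpl41*, which encodes the smallest ribosomal protein. Its values were 1732 and 1737 (Day 0), 1226 and 968 (Day 1), 945 and 1062 (Day 2) and 1025 and 804 (Day 3). *Rpl41* was the first of the tested members in every library, its libraries of Day 1, Day 2 and Day 3 overlapped, and it fell from Day 0 to Day 3 with a log2 fold change of -0.93 (SE 0.18, adjusted p = 0.00500), the fourth smallest among the members called. Its part of the members' sum was 3.58% and 3.23% on Day 0 and 5.12% and 4.55% on Day 3. *Rps2*, whose protein lines the entry of the mRNA channel, was at 1178 and 1287 (Day 0), 831 and 741 (Day 1), 605 and 605 (Day 2) and 479.9 and 441 (Day 3), with no overlap between the days. The log2 fold change of *Rps2* was -1.42 (SE 0.14, adjusted p = 1.96e-04). *Rps12*, a protein of the beak of the small subunit, went from 1244 ± 116 (SD, n = 2) FPKM on Day 0 to 391 ± 9.13 on Day 3, a log2 fold change of -1.67.

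*Rpl7a*, *Rps26*, *Rps9* and *Rps23* were also among the 10 most abundant members and fell, and *Rplp0*, *Rplp1* and *Rpl23a*, the others of the 10, are described elsewhere in the text. *Rpl7a*, of the large subunit, had 1052 ± 212 FPKM on Day 0 and 457 ± 56.4 on Day 3 (SD, n = 2), a log2 fold change of -1.19. *Rps26*, at the exit of the mRNA channel, had 964 ± 114 FPKM on Day 0 and 452 ± 29.5 on Day 3, a log2 fold change of -1.09. *Rps9*, at its entry, had 991 ± 85.2 FPKM on Day 0 and 407 ± 94.3 on Day 3, a log2 fold change of -1.30. *Rps23*, whose protein reaches into the decoding centre, went from 1008 ± 64.3 to 343 ± 61.9 FPKM, a log2 fold change of -1.56. Adjusted p-values of *Rpl7a*, *Rps26*, *Rps9* and *Rps23* lay between 4.01e-04 and 0.00121, and the Day 3 libraries were below the Day 0 libraries in each.

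The P-stalk of the large subunit, built from the products of *Rplp0*, *Rplp1* and *Rplp2*, recruits the elongation factors. *Rplp0*, its base, was at 1272 and 1351 (Day 0), 1049 and 803 (Day 1), 525 and 468 (Day 2) and 378 and 373 (Day 3). Each day's libraries lay below those of the day before, and *Rplp0* fell with a log2 fold change of -1.80 (SE 0.16, adjusted p = 1.51e-04). *Rplp1* had FPKM values of 1042 and 1071 (Day 0), 805 and 747 (Day 1), 468 and 489 (Day 2) and 404 and 294 (Day 3), with a log2 fold change of -1.61 (SE 0.17, adjusted p = 2.65e-04). *Rplp2* had FPKM values of 680.1 and 745 (Day 0), 632 and 476 (Day 1), 405 and 384 (Day 2) and 298 and 232 (Day 3), with a log2 fold change of -1.43 (SE 0.18, adjusted p = 6.13e-04). The 3 genes lay in the order *Rplp0*, *Rplp1*, *Rplp2* on Day 0 by their means, and the difference between their falls was not tested.

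*Rpsa*, whose protein also occurs as the laminin receptor precursor, was at 708 and 741 (Day 0), 493 and 469 (Day 1), 393 and 429 (Day 2) and 345 and 338 (Day 3). It dropped most between Day 0 and Day 1, and *Rpsa* fell over the whole course with a log2 fold change of -1.08 (SE 0.12, adjusted p = 3.95e-04), a smaller size than the members' median.

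At the other end, 2 of the 80 members did not pass the test from Day 0 to Day 3, *Rpl30* and *Rpl34*. *Rpl30* was at 21.2 and 24.0 (Day 0), 10.7 and 42.5 (Day 1), 20.1 and 25.2 (Day 2) and 43.0 and 16.5 (Day 3). Its Day 3 libraries lay on either side of both Day 0 libraries, and the log2 fold change came to 0.23 (SE 0.59, adjusted p = 0.778), the only value above 0 among the members. Without Day 3 replicate 1 it was -0.43. *Rpl34* was at 13.9 and 25.7 (Day 0), 19.5 and 19.2 (Day 1), 15.3 and 29.1 (Day 2) and 8.13 and 13.3 (Day 3). Both of its Day 3 libraries lay below both Day 0 libraries, by a small margin, and the log2 fold change came to -0.81 (SE 0.37, adjusted p = 0.122). With the replicate number as a block in the model, the adjusted p of *Rpl34* was 0.0285, within a range of 0.00181 to 0.533 over all settings.

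Both genes have a neighbouring row with higher FPKM, and whether that row holds reads of the member was not tested. *Gm12191*, beside *Rpl30* in the table and on chromosome 11 in RefSeq, had FPKM values of 592 and 653 (Day 0), 577 and 494 (Day 1), 299 and 276 (Day 2) and 284 and 207 (Day 3). *Rpl34-ps1*, beside *Rpl34* and on chromosome 6 in RefSeq, had 352 and 367 (Day 0), 357 and 287 (Day 1), 177 and 224 (Day 2) and 168 and 173 (Day 3). The rows *Gm12191* and *Rpl34-ps1* fell by 1.35 and 1.07 on the log2 scale, with adjusted p-values of 6.83e-04 and 0.00135. Added to the members, an alternative chosen after seeing the data, they gave a log2 fold change of -1.25 (SE 0.18) for *Rpl30*, where the sign turns, and -1.06 (SE 0.17) for *Rpl34*. *Rpl26*, which passed the filter only with its neighbour *Gm15772*, then had -1.56 (SE 0.17). With the 4 neighbouring rows added, 81 of 81 members were called lower.

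The smallest falls among the members called were those of *Rps28*, *Rpl27*, *Rpl36* and *Rpl41*. *Rps28*, of the small subunit, was at 669.8 and 693 (Day 0), 626 and 438 (Day 1), 462 and 485 (Day 2) and 421 and 351 (Day 3). Day 1 replicate 2 lay below both Day 2 libraries, and Day 0 lay above all later libraries. The log2 fold change of *Rps28* was -0.82 (SE 0.19, adjusted p = 0.00916), and -0.51 relative to the median of all genes. It was no longer called without Day 0 replicate 1 (-0.85), Day 0 replicate 2 (-0.80) or Day 3 replicate 2 (-0.69), nor with median ratio scaling (-0.51) or quantile normalization (-0.15). *Rpl27* had FPKM values of 538 and 567 (Day 0), 479 and 468 (Day 1), 348 and 408 (Day 2) and 271 and 317 (Day 3). Its libraries fell in order of the days, the log2 fold change came to -0.91 (SE 0.14, adjusted p = 0.00166), and with quantile normalization it was -0.25 and not called. *Rpl36* had FPKM values of 413 and 459 (Day 0), 391 and 394 (Day 1), 309 and 362 (Day 2) and 286 and 182 (Day 3). The Day 3 libraries of *Rpl36* lay far apart from each other and below all earlier ones, its log2 fold change came to -0.93 (SE 0.21, adjusted p = 0.00882), and it was not called without Day 0 replicate 2 (-0.85) or with quantile normalization (-0.49).

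Paralogs of ribosomal proteins were described beside the gene each is named after, since they can take its place in the ribosome. *Rpl22l1*, the paralog of *Rpl22*, was at 93.5 and 106 (Day 0), 49.6 and 115 (Day 1), 25.2 and 51.2 (Day 2) and 30.2 and 43.1 (Day 3). The values of Day 1 spanned those of Day 0, and both Day 3 libraries were below both Day 0 libraries. The log2 fold change of *Rpl22l1* was -1.44 (SE 0.42, adjusted p = 0.0278), and the call was lost without Day 0 replicate 1 (-1.53), Day 0 replicate 2 (-1.35), Day 3 replicate 1 (-1.19) or Day 3 replicate 2 (-1.69). *Rpl22l1* was also not called with median ratio scaling (-1.13), at the same sum without OL markers (-1.19), with no filter (-1.44) or without the trend in the variance prior (-1.44), and kept its call in 12 of 20 settings. *Rpl22* was at 112 and 113 (Day 0), 93.9 and 85.9 (Day 1), 66.0 and 66.6 (Day 2) and 51.7 and 53.2 (Day 3), close between replicates on each day, and fell with a log2 fold change of -1.09 (SE 0.12, adjusted p = 3.22e-04). *Rps27l*, the paralog of *Rps27* and a target of p53, was at 150.3 and 293 (Day 0), 111 and 128 (Day 1), 97.3 and 72.8 (Day 2) and 69.2 and 117 (Day 3). Its replicates differed on Day 0 and on Day 3, and the Day 3 libraries overlapped those of Day 1 and Day 2. The log2 fold change of *Rps27l* was -1.21 (SE 0.34, adjusted p = 0.0230), and the call was lost without Day 0 replicate 2 (-0.73) or Day 3 replicate 1 (-0.84), with median ratio scaling (-0.90), at the same sum without OL markers (-0.96) and with only the days compared (-1.21). *Rps27l* lay above *Rps27* in each library in FPKM, which is per length, and with *Gm9846* added *Rps27* lay above *Rps27l*.

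*Rpl7l1*, the paralog of *Rpl7*, was at 44.8 and 40.7 (Day 0), 29.7 and 30.3 (Day 1), 14.8 and 27.7 (Day 2) and 22.9 and 15.9 (Day 3). Both Day 0 libraries lay above all later ones, and Day 2 and Day 3 overlapped. Its log2 fold change came to -1.12 (SE 0.28, adjusted p = 0.0151), and the call was lost without Day 0 replicate 1 (-1.05), Day 0 replicate 2 (-1.19) or Day 3 replicate 2 (-0.87), and with median ratio scaling (-0.81). *Rpl7* had 858 ± 70.1 FPKM on Day 0 and 355 ± 11.8 on Day 3 (SD, n = 2), a log2 fold change of -1.27. *Rps4y2*, a copy of the X-linked *Rps4x* that GENCODE lists as *Rps4l*, a transcribed processed pseudogene on chromosome 6, was at 19.4 and 19.1 (Day 0), 13.9 and 14.1 (Day 1), 6.11 and 7.98 (Day 2) and 5.85 and 4.44 (Day 3). It fell with a log2 fold change of -1.73 (SE 0.22, adjusted p = 7.11e-04), and *Rps4x*, at 767 and 908 (Day 0), 572 and 509.7 (Day 1), 338 and 334 (Day 2) and 229 and 228 (Day 3), with -1.87 (SE 0.14, adjusted p = 8.42e-05). The days did not overlap in *Rps4x*. *Rpl3*, *Rpl10* and *Rpl39*, whose paralogs were listed at 0, had 836, 738 and 663 FPKM on Day 0 and log2 fold changes of -1.81, -1.59 and -1.13. The paralog list of 9 names held 3 further genes that the table does not have under those names, *Rpl26l1*, *Rps4l* and *Rps4y1*.

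The course was then taken step by step, to ask when the members fell. The comparisons of Day 1 and of Day 3 with Day 0 share the Day 0 libraries, and each step shares its libraries with the next, so their values are given side by side and not correlated. From Day 0 to Day 1, 21 of 80 members were called lower, where 7.56% of all genes were, and by limma 0 were called higher, with 0 at an unadjusted p under 0.05, where 5.04% of all genes were called and 10.7% had such an unadjusted p. At an unadjusted p under 0.05 in limma, 51 members were lower, where 16.1% of all genes were. The members' median was -0.45 and that of all genes -0.07. Among the members of smallest p were *Rps19* at -0.84 (SE 0.15, adjusted p = 0.00967) and *Rpsa* at -0.59 (SE 0.12, adjusted p = 0.0171). The count was 1 without Day 0 replicate 1, 0 without Day 0 replicate 2, 1 without Day 1 replicate 2, and 11 without Day 2 replicate 1 and without Day 2 replicate 2. With quantile normalization 833 genes were lower and 836 higher over all genes, against 923 and 615, and 9 members were called. The members called were 12 with libraries at the same sum and 12 with median ratio scaling. They were 3 with only the days compared, 1 without the trend in the variance prior and 12 with no filter. Over all genes 1538 were called, and 607 without Day 0 replicate 1, 583 without Day 0 replicate 2 and 708 without Day 1 replicate 2.

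From Day 1 to Day 2, 17 of 80 members were called lower, where 1.73% of all genes were, and by limma 0 were called higher, with 0 at an unadjusted p under 0.05, where 2.16% of all genes were called and 6.60% had such an unadjusted p. At an unadjusted p under 0.05 in limma, 69 members were lower, where 15.2% of all genes were. The members' median was -0.58 and that of all genes -0.19. Among the smallest p-values were those of *Rpl13a* at -0.80 (SE 0.14, adjusted p = 0.0252) and *Rplp0* at -0.89 (SE 0.16, adjusted p = 0.0274). *Rpl13a*, known also for its part in a complex that represses translation after interferon, was at 565 and 643 (Day 0), 519.7 and 433 (Day 1), 276 and 269 (Day 2) and 209 and 193 (Day 3). Its drop from Day 1 to Day 2 was the largest of its 3 steps. With the replicate number as a block, 27 members were called lower, against 0 with only the days compared, 0 without the trend in the variance prior and 1 with no filter. The count was 0 without Day 0 replicate 1, Day 0 replicate 2, Day 1 replicate 1, Day 2 replicate 1 or Day 2 replicate 2, and 8 without Day 1 replicate 2. The calls over all genes were 475, and 138 without Day 0 replicate 1, 136 without Day 0 replicate 2, 60 without Day 1 replicate 1, 188 without Day 1 replicate 2, 241 without Day 2 replicate 1 and 11 without Day 2 replicate 2. With the block they were 803. Over all genes 211 were lower and 264 higher, against 104 and 371 with median ratio scaling, 131 and 294 with quantile normalization, and 149 and 303 without the OL markers in the sum, where 1, 10 and 11 members were called lower. *Rpl12*, *Rps25* and *Rps4x* were among those that passed the test in both of the first 2 steps, and *Rps25*, named for that reason after its values were seen, is known for its part in translation from viral internal ribosome entry sites. *Rps25* was at 545 and 531 (Day 0), 399 and 357 (Day 1), 262 and 219.6 (Day 2) and 206 and 189 (Day 3), with both libraries of each day below those of the day before.

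From Day 2 to Day 3, limma called 0 of 80 members lower and 0 higher, where 0.0491% of all genes were called lower and 0.246% higher. At an unadjusted p under 0.05 in limma, 58 members were lower and 0 higher, where 7.57% of all genes were lower and 6.95% higher. The smallest adjusted p of a member was 0.0867. The members' median of -0.45 was close to that of the first step, and the median of all genes was -0.02. With the replicate number as a block 1 member, *Rps19*, was called lower, and 3 were without Day 3 replicate 1. Over all genes 36 were called, 163 with the block, 223 without Day 3 replicate 1, 11 without Day 1 replicate 1 and without Day 1 replicate 2, and 0 without Day 0 replicate 1, Day 0 replicate 2, Day 2 replicate 1, Day 2 replicate 2 or Day 3 replicate 2. *Rps19* was at 149 and 185 on Day 2 and 99.0 and 108 on Day 3, a log2 fold change of -0.68. Over the 3 steps, 76 of 80 members had a negative log2 fold change in each, and the day means of 77 fell from each day to the next. Whether the steps differed in size was not tested.

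**Figure D4:**
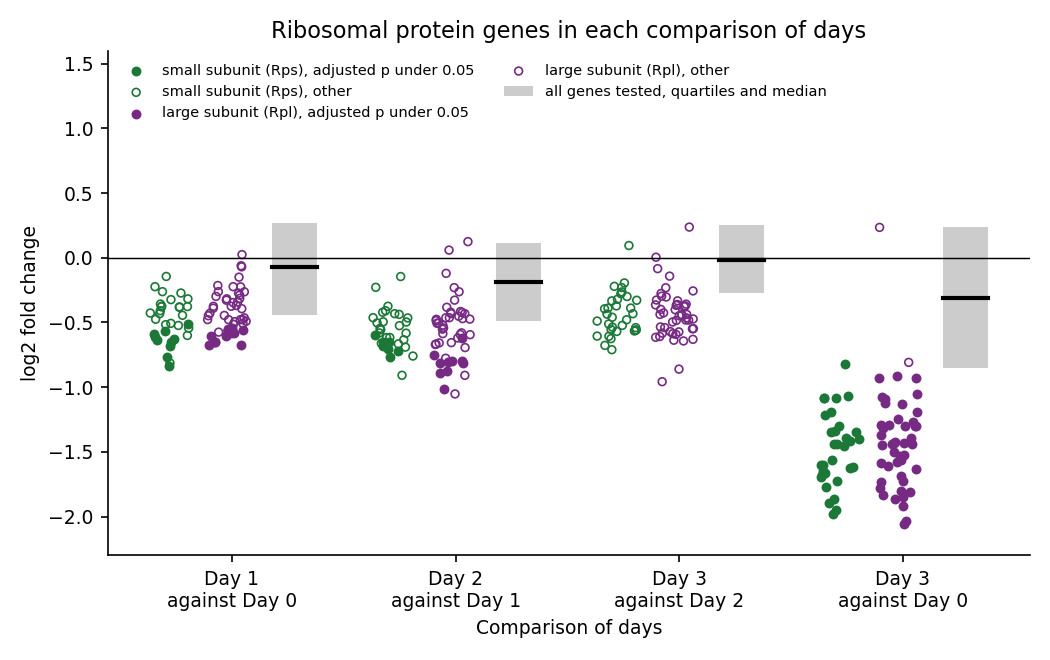
Log2 fold changes of the 80 members in each comparison of days, by subunit, filled where the adjusted p was under 0.05, beside the quartiles and median of all genes tested (grey box, black line). The members' medians were -0.45, -0.58 and -0.45 in the 3 steps and -1.44 from Day 0 to Day 3, and those of all genes -0.07, -0.19, -0.02 and -0.31.

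The members of each subunit were set side by side, and the difference between the subunits was not tested. All 33 small-subunit members passed the filter, and 33 fell from Day 0 to Day 3, with a median of -1.46. Of the 51 large-subunit members, 47 were tested and 45 fell, with a median of -1.43. Of all genes tested, 26.3% were called lower from Day 0 to Day 3. On Day 1 against Day 0, 10 of 33 and 11 of 47 were called lower, where 7.56% of all genes were. With median ratio scaling 8 and 4 were called lower, where 6.32% of all genes were. At the same sum the counts were also 8 and 4, where 6.42% of all genes were called lower. The summed FPKM of the small-subunit members divided by that of the large-subunit members was 0.754 and 0.750 (Day 0), 0.737 and 0.729 (Day 1), 0.744 and 0.742 (Day 2) and 0.727 and 0.756 (Day 3). These ratios overlapped between Day 0 and Day 3, and the spread between the Day 3 libraries, 0.0209 (SD, n = 2), was larger than the difference of the means of Day 0 and Day 3, 0.752 and 0.741.

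The members kept much of their order of abundance. Across the 80 members the FPKM on Day 0 and on Day 3 had a Spearman correlation of 0.84, given as a description only, since genes of a sample do not count as independent replicates. The Day 3 mean of a member that fell was between 23.9% and 56.6% of its Day 0 mean, with the lowest in *Rpl12* and the highest in *Rps28*, and the median over the 80 members was 36.7%. Of the 80 members, 69 (Day 0), 15 (Day 1), 45 (Day 2) and 16 (Day 3) were higher in replicate 2 than in replicate 1, so neither replicate held the higher values on every day.

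Short transcripts are measured less surely than long ones in FPKM, so the falls were set beside transcript length. The 21 members of up to 600 nt had a median log2 fold change of -1.40, the 18 of 601 to 800 nt -1.37, the 26 of 801 to 1200 nt -1.57 and the 15 longer ones -1.53. The other genes tested had medians of -0.20 (189 genes), -0.32 (294), -0.39 (782) and -0.31 (10755) in the same classes. Across the 80 members length and log2 fold change had a Spearman correlation of -0.18, and the Day 0 level and log2 fold change one of -0.15, again as descriptions.

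Ribosomal protein genes have many processed copies in the genome, and reads that match a copy can be lost or placed there. Over the 83 members with a protein-coding transcript in GENCODE M21, the median share of 75-base stretches that also occur in a transcript of another gene was 27.9%. It was above 50% in 19 members, among them *Rps6* at 84.1% and *Rpl23a* at 81.7%, and *Rps3*, *Rpl3l* and *Rpl39l* were among those at 0. The 13 tested members with a share under 10% had a median log2 fold change of -1.21, and 12 of them fell. *Rps3* fell with a log2 fold change of -1.08, and is named here for its share after its values were seen. The tested members with a share above 50% had a median of -1.67 and those at or below it -1.43.

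The genes of the ribosome outside the naming pattern were read as a list. Of 7 names, 5 were in the table under that name and tested, and all 5 fell from Day 0 to Day 3. Their median was -1.10 beside -1.44 for the members, and 26.3% of all genes tested were called lower. With median ratio scaling 4 of 5 were called lower (median -0.78), where 16.8% of all genes were. With quantile normalization 4 of 5 were called lower (median -0.75), where 18.0% of all genes were. *Gnb2l1*, the gene of the scaffold protein Rack1 on the small subunit, had 600.1 FPKM on Day 0 and 181 on Day 3, a log2 fold change of -1.73 (SE 0.15, adjusted p = 1.51e-04). *Rpl36al*, a copy of *Rpl36a*, had 176 FPKM on Day 0 and 80.7 on Day 3, a log2 fold change of -1.11 (SE 0.16, adjusted p = 0.00129). The 6 rows of ribosomal protein pseudogenes held 5 tested, of which 1, *Rpl34-ps1*, was called lower, where 26.3% of all genes were. The median of these 5 was -1.07. With the replicate number as a block 2 were called lower, *Rplp2-ps1* being the other, where 3551 of all 12208 genes tested were.

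Other parts of the translation machinery were read from lists of known genes, beside all genes tested, of which 26.3% were called lower, or 16.8% with median ratio scaling, with a median of -0.31. The list of elongation factors also held related genes, among them *Eef2k*, *Eef1e1* and *Tpt1*. Of its 11 genes tested, 9 were called lower and 1 higher, with a median of -1.18, where 11.96% of all genes were called higher. *Eef1a1*, which brings aminoacyl-tRNA to the ribosome and whose mRNA has a TOP motif, had 5644 FPKM on Day 0 and 1746 on Day 3, a log2 fold change of -1.70 (SE 0.21, adjusted p = 5.22e-04). *Eef1b2*, its exchange factor, had 189.8 FPKM on Day 0 and 60.6 on Day 3, a log2 fold change of -1.62 (SE 0.19, adjusted p = 4.73e-04). *Eif5a2* rose, from 6.74 to 18.3 FPKM, a log2 fold change of 1.30 (SE 0.26, adjusted p = 0.00543). Of 44 initiation factors and poly(A)-binding proteins, 22 were called lower and by limma 0 higher, with 0 higher at an unadjusted p under 0.05, and their median was -0.56. *Pabpc1* and *Pabpc4*, which bind the poly(A) tail, fell with log2 fold changes of -1.65 (SE 0.17, adjusted p = 2.74e-04) and -2.15 (SE 0.22, adjusted p = 2.42e-04). With median ratio scaling 5 genes of the elongation list were lower and 1 higher, and 11 of the initiation list lower and 2 higher.

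Besides genes that make and assemble the subunits, the ribosome biogenesis list of 89 names held *Myc*, *Mycn*, *Mycl* and *Max*. Of the 85 genes of this list that were tested, 43 were called lower and 1 higher, with a median of -0.73. Of all genes tested, 26.3% were called lower and 11.96% higher. *Myc*, a transcription factor that drives ribosome production, had 72.2 FPKM on Day 0 and 11.97 on Day 3, a log2 fold change of -2.54 (SE 0.31, adjusted p = 5.39e-04). *Npm1*, a major nucleolar protein, had 474 FPKM on Day 0 and 119.7 on Day 3, a log2 fold change of -1.98 (SE 0.13, adjusted p = 6.30e-05). *Sbds*, which acts in a late step of large-subunit maturation, rose from 30.03 to 86.5 FPKM, a log2 fold change of 1.50 (SE 0.14, adjusted p = 1.89e-04). With median ratio scaling 28 genes of this list were lower and 1 higher, where 2047 and 2134 of all 12208 genes tested were.

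The ribosome of mitochondria has its own proteins, and the median change of their genes was nearer to 0 than that of the cytosolic set. Of 75 *Mrpl* and *Mrps* genes tested, 25 (33.3%) were called lower, where 26.3% of all genes were, and by limma 0 higher, with 0 higher at an unadjusted p under 0.05, and their median was -0.56 beside -1.44 for the cytosolic members. *Mrpl52* and *Mrpl13* fell with log2 fold changes of -2.002 (SE 0.26, adjusted p = 7.64e-04) and -1.74 (SE 0.31, adjusted p = 0.00345). With the other scalings the percent of the list called lower was 20.0% against 20.7% of all genes at the same sum, 10.7% against 16.8% of all genes with median ratio scaling, 17.3% against 18.0% of all genes with quantile normalization and 13.3% against 17.9% of all genes without the OL markers in the sum. These are 15, 8, 13 and 10 mitochondrial genes, with 1, 2, 1 and 1 called higher, and the list's median stayed below 0 in each. The difference between the cytosolic and the mitochondrial set was not tested. Of 12 regulators of the translation of TOP mRNAs, in the mTOR pathway, 5 (41.7%) were called lower, where 26.3% of all genes were, and by limma 0 higher, with 0 higher at an unadjusted p under 0.05, and a median of -0.42. At the same sum 3 of the 12 regulators were called lower, against 20.7% of all genes. With median ratio scaling 2 of 12 (16.7%) were called lower, against 16.8% of all genes. There 1 regulator was called higher and the median was -0.12. With quantile normalization 3 of 12 were called lower, against 18.0% of all genes. Without the OL markers in the sum 2 of 12 (16.7%) were, against 17.9%. The regulators' share called lower was therefore not above that of all genes with median ratio scaling or without the OL markers. *Eif4ebp1* and *Eif4ebp2*, repressors of the cap-binding factor that mTOR switches off, fell with log2 fold changes of -1.95 (SE 0.39, adjusted p = 0.00532) and -1.48 (SE 0.14, adjusted p = 1.84e-04).

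**Figure D5:**
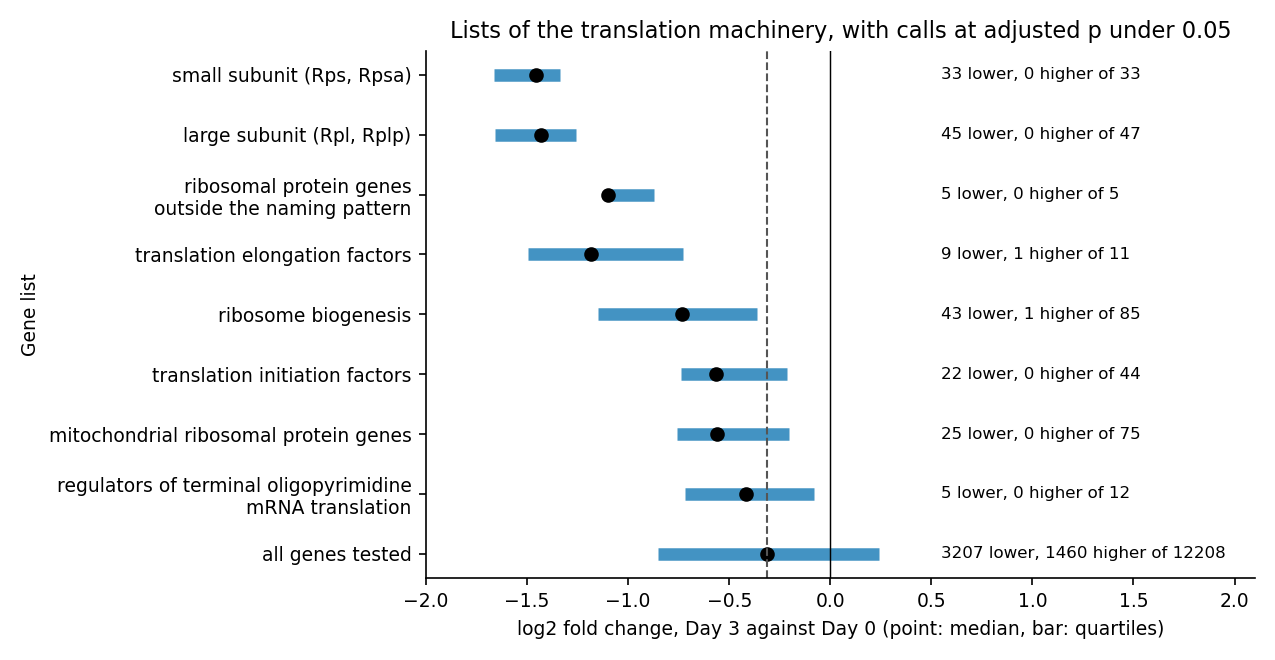
Median (point) and quartiles (bar) of the changes between Day 0 and Day 3, in log2 units, in each list, with the number called lower and higher of those tested, and a dashed line at the median of all genes tested. The subunits' medians were -1.46 and -1.43, and that of the mitochondrial ribosomal protein genes was -0.56.

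Markers of the cells in the culture moved over the same days as the members, and their part in the members' fall was not tested. The 6 genes on the list of OPC markers had summed FPKM of 1187 and 1254 (Day 0), 915 and 852 (Day 1), 638 and 489.6 (Day 2) and 395 and 233 (Day 3). *Gpr17* was the most abundant of them by the mean over the 8 libraries. All 6 were called lower by limma on Day 3 than on Day 0, where 26.3% of all genes were. Among them were *Pdgfra*, the receptor used to purify the cells, at -4.87 (SE 1.00, adjusted p = 0.00622), and *Cspg4* at -4.96 (SE 0.40, adjusted p = 1.14e-04). The smallest fall of the 6 was that of *Gpr17*, at -0.79 (SE 0.21, adjusted p = 0.0200). On Day 0 the mean of *Pdgfra* was 443 and that of *Gpr17* 256. On Day 3 they were 17.9 and 151, so the summed FPKM of the list did not follow *Pdgfra* alone. The OPC markers called lower were 5 of 6 at the same sum, 4 with median ratio scaling, 6 with quantile normalization and 4 without the OL markers in the sum. From Day 0 to Day 1, 4 of the 6 OPC markers were called lower and 1 higher, where 7.56% and 5.04% of all genes were. Their log2 fold changes in that step ran from -3.83 to 0.82, with a median of -1.37. The 12 OL markers summed to 1790.2 and 1318 (Day 0), 3948 and 4403 (Day 1), 12632 and 17138 (Day 2) and 22476 and 30286 (Day 3), with *Mbp*, a major myelin protein gene, the most abundant by the mean over the 8 libraries, though at only 73.7 on Day 0. Of the 11 OL markers tested, 11 were called higher by limma on Day 3 than on Day 0, where 11.96% of all genes were. Among them were *Mbp* at 7.11 (SE 0.32, adjusted p = 4.78e-05) and *Mobp* at 8.39 (SE 0.71, adjusted p = 1.32e-04). The 6 proliferation markers summed to 998 and 754 (Day 0), 55.5 and 13.6 (Day 1), 11.6 and 8.87 (Day 2) and 21.3 and 15.3 (Day 3), with *Ube2c* the most abundant by that mean, and all 6 were called lower from Day 0 to Day 1 and from Day 0 to Day 3. The sum of the proliferation markers dropped most between Day 0 and Day 1, while the members' share was lower on each day than on the day before.

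Markers of other cells were measured in the same way, with the most abundant again by the mean over the 8 libraries. Their calls are those of Day 3 against Day 0, where 26.3% of all genes tested were called lower and 11.96% higher. With the replicate number as a block, 3551 of all 12208 genes tested were lower and 1617 higher. The 8 astrocyte markers had summed FPKM of 116 and 376 (Day 0), 157 and 505 (Day 1), 123 and 626 (Day 2) and 138 and 931 (Day 3), with *Gfap* the most abundant, higher in replicate 2 on every day, and 1 of 8, *Sox9*, was called lower. With the replicate number as a block, 3 astrocyte markers were also called higher, *Gfap*, *Aqp4* and *Slc4a4*, where limma without it called 0 and 0 at an unadjusted p under 0.05, and both genes beside *Gfap* are named after their values were seen. The 7 neuron markers summed to 73.3 and 53.7 (Day 0), 87.9 and 58.5 (Day 1), 135 and 66.3 (Day 2) and 235 and 119 (Day 3), with *Tubb3* the most abundant, and of 5 tested 1, *Elavl4*, was called lower and 1, *Tubb3*, higher, while with the block 2, *Elavl4* and *Snap25* (named after its value was seen), were called lower. The 10 microglia markers summed to 2.51 and 0.349 (Day 0), 0.697 and 0 (Day 1), 0.351 and 0.964 (Day 2) and 1.96 and 0 (Day 3), and *Aif1*, *C1qa*, *C1qb*, *C1qc*, *Csf1r*, *Ctss*, *Cx3cr1*, *Tmem119* and *Tyrobp* were listed at 0 in every library, leaving *P2ry12*. The 9 endothelial and mural markers summed to 0.318 and 1.37 (Day 0), 0 and 2.44 (Day 1), 0 and 1.61 (Day 2) and 0.767 and 1.37 (Day 3), with *Acta2* the most abundant and *Cdh5*, *Cldn5*, *Rgs5* and *Tek* at 0.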

How the data were processed

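RNA-seq of 8 libraries was read from the FPKM table that the authors deposited, made with OmicSoft ArrayStudio on mm10. Its aligner, gene model and strand use are not given. Genes that reached an FPKM of 1 in 2 or more libraries went into limma 3.58.1 (lmFit, eBayes with trend) in R 4.3.3 as log2(FPKM + 1), with the 4 days as groups and Benjamini-Hochberg adjustment over all 12208 genes. Sums and lists were made in Python 3.11.15 with pandas 2.3.3. The fit was tested on simulated data with no read counts behind them under 2 noise models, the second added after the first result was seen, and unchanged genes made up somewhat more of the calls than the nominal rate. Replicate numbers were checked for pairing: the replicate difference correlated between each pair of days (r from 0.16 to 0.29 over 12208 genes), and the labels state no shared batch, so the replicate block is an alternative.

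Members and lists were chosen with earlier results of these data known. The members named are the 10 of highest mean, the 5 largest rises and falls, paralogs with their main genes, the P-stalk genes and *Rpsa*, the 3 of smallest p in each step, and those not tested; of other lists, the 2 largest rises and falls among those called, and of marker lists the most abundant gene. Others were chosen after their values were seen, and some genes that the rule names are not reported here. Alternatives covered pseudocount, filter, scaling, block, days in the fit, variance prior and each library left out. Estimated depth was 948000 to 1528000 fragments per library. Shared stretches came from GENCODE M21 transcripts and promoters from RefSeq GRCm38.p6.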

Additional observations from a re-analysis of the deposited data

How the results depend on the processing

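From Day 0 to Day 3, 72 to 81 members were called lower over 19 alternatives. Over the log2 fold changes of 61 named genes, 1158 values were recomputed: 1096 kept direction and side of the threshold, 57 lost the call, 2 gained it and 3 reversed. The reversed values are *Rpl30*, -1.25 with the neighbouring rows added (chosen after seeing the data) and -0.43 without Day 3 replicate 1 (its highest with a library left out is 0.90), and *Eif4a1*, the most abundant initiation factor and outside the naming rule, 0.19 with quantile normalization against -0.47. *Eif4a1* also lost its call with the other 3 scalings, as did *Mrps21*, the most abundant mitochondrial ribosomal protein gene, with all 4. Of the lost calls, more came with a library left out than are given beside the genes.

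Members called lower on Day 1 against Day 0 were 12 with no filter, 12 at the same sum, 12 with median ratio scaling, 9 with quantile normalization, 12 at the same sum without OL markers, 3 with only the days compared and 1 without the trend. On Day 2 against Day 1 they were 1 with no filter, 30 with a filter of 10 FPKM, 1 with median ratio scaling, 10 with quantile normalization, 11 without OL markers in the sum, 27 with the replicate block, 0 with only the days compared and 0 without the trend, and calls over all genes were 247 with no filter, 803 with the block, 0 with only the days compared and 121 without the trend. On Day 3 against Day 2 the block gave 1 member and 163 calls over all genes, a pseudocount of 0.1 gave 8 calls, and no filter, only the days compared and no trend gave 0 each. The block changed the calls of 15 members over the comparisons, all gained, and no other call of a member.

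With a library left out, members called lower ranged over 0 to 21 (Day 1 against Day 0), 0 to 19 (Day 2 against Day 1) and 0 to 3 (Day 3 against Day 2). Calls over all genes ranged over 2769 to 4548 (Day 3 against Day 0), 583 to 1585, 11 to 445 and 0 to 223 in the steps. The lone library left in a day is assumed to vary like the other groups.

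The members' median from Day 0 to Day 3 was -1.29 at the same sum, -1.12 with median ratio scaling, -1.06 with quantile normalization and -1.18 without OL markers in the sum. With quantile normalization it was -0.26, -0.43 and -0.33 in the steps, and with median ratio scaling -0.38 on Day 2 against Day 1. The share was 7.17% on Day 2 and 5.59% on Day 3 without OL markers in the sum, 6.61% on Day 2 without *Rpl41* and 7.26% on Day 2 with the neighbouring rows. The table has no mitochondrially encoded rows, so that sum is the deposited one. The cause of these differences was not tested.

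With 2 libraries per day, all comparisons of days, that of Day 3 with Day 0 among them, rest on the same few degrees of freedom. The counts of members called in the steps between successive days moved with single libraries. Depth was estimated, low values rest on few fragments, and FPKM gives no absolute amount. Reads shared with processed copies cannot be placed from the deposited table.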
